A study of Mus musculus with 9 samples.

Results

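The 49 genes described here drive, carry out or restrain cell division, and they were followed through RNA sequencing libraries of mouse liver fibroblasts and of the cells these are thought to come from. All 49 were found by symbol among the 24453 genes of the table, and 46 of them held enough reads to be tested. There were 3 groups of 3 libraries, all from mice labelled C57BL/6J. HSCs, hepatic stellate cells, came from healthy livers of wild-type mice and were separated by density gradient. CCl4-fib were fibroblasts from Col1a2-GFP Tg mice given carbon tetrachloride, a hepatotoxin, by injection for 8 weeks. NASH-fib were fibroblasts from male mice that carried the same transgene on an MC4R-KO background (MC/COL), which lack the melanocortin 4 receptor and become obese, and which ate Western diet for 20 weeks from the age of 8 weeks to model non-alcoholic steatohepatitis. In both fibroblast groups GFP was driven by a promoter of the collagen gene Col1a2 and the cells were sorted as CD45- GFP+, so only cells with an active Col1a2 promoter were taken, whereas HSCs carried no GFP and were not sorted. Each library was made from cells pooled over 3 to 5 mice. The isolation method, the transgene and the treatment differed with the step from HSCs to fibroblasts, as did the MC4R-KO allele for NASH-fib. The carbon tetrachloride, the diet, the MC4R-KO allele and the length of the model differed together between the fibroblast groups. Within each comparison these cannot be told apart.

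A dividing cell passes from G1 through DNA synthesis (S phase) and G2 into mitosis, driven by cyclins bound to cyclin-dependent kinases. D-type cyclins with Cdk4 or Cdk6 phosphorylate the retinoblastoma protein Rb1 and so release E2F factors, which switch on genes of DNA synthesis, and later genes of mitosis are switched on by a complex of B-Myb, Foxm1 and MuvB proteins. Inhibitors of the Ink4 and Cip/Kip families hold the kinases back, and p53, encoded by Trp53, induces one of them, Cdkn1a. In a healthy liver HSCs rest, store vitamin A and seldom divide, and after injury they can become collagen-producing fibroblasts and re-enter the cycle.

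The libraries held between 3071070 and 5634273 reads on genes, with a median of 3740541 in HSCs, 5258041 in CCl4-fib and 4550212 in NASH-fib. Values are the deposited normalized signal per gene, and 3 reads, taken here as the floor of detection, correspond to a value of 2.38 to 4.37. Summed markers of activated fibroblasts held 0.199 to 0.315% of all values in HSCs, 1.31 to 1.49% in CCl4-fib and 0.691 to 0.822% in NASH-fib. Summed markers of stellate cells held 1.48 to 1.73%, 0.190 to 0.479% and 0.439 to 0.739%, respectively. Markers of cells other than those named by the labels were read in all groups. Hepatocyte markers held 0.800 to 1.61% of values in HSCs, 0.0747 to 0.116% in CCl4-fib and 0.261 to 0.966% in NASH-fib. Macrophage markers held 0.118 to 0.409%, 0.0105 to 0.0214% and 0.0686 to 0.153%, and endothelial markers 0.197 to 0.395%, 0.00717 to 0.00886% and 0.0312 to 0.0986%. Each of the 15 hepatocyte, 12 macrophage and 12 endothelial markers was read in every group. Lymphocyte markers summed to values of 52.6 to 121 in HSCs, 10.2 to 15.3 in CCl4-fib and 75.7 to 292 in NASH-fib, with Cd3e, Cd3g, Cd4 and Nkg7 at 0 in CCl4-fib. The summed markers of hepatocytes, macrophages, endothelial cells and lymphocytes were lowest in CCl4-fib, the group in which most cell cycle genes that changed were highest. Other lists took other courses. Mesothelial markers summed to 552 to 959 in HSCs, 14573 to 21507 in CCl4-fib and 24886 to 31521 in NASH-fib, and cholangiocyte markers to 72.5 to 232, 3488 to 4778 and 6103 to 11859. Smooth muscle markers summed to 2349 to 3805, 5744 to 17451 and 6937 to 25591. Erythroid markers were highest in HSCs (534 to 1587, against 180 to 310 and 61.2 to 307, with Klf1 at 0 in both fibroblast groups), and neutrophil markers read 52.6 to 1076, 5.55 to 78.2 and 614 to 6459, with Ly6g and Csf3r at 0 in CCl4-fib. The part of these cells in the results below was not tested. Library NASH-fib replicate 1 was nearer in its reads to HSC replicate 2, with a chi-square per gene of 61.8, than to NASH-fib replicates 3 and 2, with 82.9 and 102. In bulk libraries fewer cells of a type and less RNA per cell cannot be told apart.

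Most of the cell cycle genes that were called differed in CCl4-fib, where Tyms, Trp53, Birc5 and others were higher than in HSCs or in NASH-fib, and few were called between NASH-fib and HSCs. Over all tested genes, too, more were called between CCl4-fib and HSCs than between NASH-fib and HSCs. A gene was called when limma gave a Benjamini-Hochberg adjusted p below 0.05 over the 13651 genes tested and the log2 fold change, on log2(value + 1), was 1 or more in either direction. Against HSCs, 10 of the 46 tested cell cycle genes (21.7%) were called higher in CCl4-fib, near the 16.2% of all tested genes, and 1 was called lower, where 11.7% of all genes were. Their median log2 fold change was 1.02 and that of all tested genes 0.18, and 36 of the 46 had a positive value. Without regard to p, 19 of 46 (41.3%) had every CCl4-fib library above every HSC library, where 27.8% of all genes did, and 2 had every library below, where 20.9% did. In NASH-fib against HSCs, 1 gene (2.17%) was called higher and 2 (4.35%) lower, where 8.23% and 4.3% of all genes were called. The median log2 fold change was -0.05, against -0.02 over all genes. The groups stood apart upward for 3 of 46 and downward for 3, where 12.7% and 11.6% of all genes did. In NASH-fib against CCl4-fib, 9 of 46 (19.6%) were called lower, where 5.66% of all genes were, with a median of -1.15 against -0.11 over all genes. None was called higher by limma, where 4.97% of all genes were. Of the cell cycle genes, 2 were higher at an unadjusted p below 0.05, DESeq2 on recovered reads called 2 (Ccnd2 and Rb1), and edgeR called 0. Every NASH-fib library was below every CCl4-fib library for 19 of 46 (41.3%), where that held for 22% of all genes, and above for 3, where it held for 17.1%. The comparisons share libraries and are not independent of each other. Without NASH-fib replicate 1, 3 genes were called higher (E2f1, Psrc1 and Cdkn1a) and 2 lower (Mcm2 and Mcm6) in NASH-fib against HSCs. Without both that library and HSC replicate 2, an alternative chosen after seeing the data, 2 were higher and 3 lower. Below, called means called by limma over all 9 libraries unless another tool or setting is named. Beyond the limma calls, DESeq2 called Cdk6, Cdk1 and Cenpf higher in CCl4-fib against HSCs, E2f1 and Cdkn2c higher and Cdkn2b lower in NASH-fib against HSCs, and Ccne1 lower in NASH-fib against CCl4-fib. Beyond them, edgeR called Cdk1 higher in CCl4-fib and E2f1 in NASH-fib against HSCs, and it did not call Prc1 and Cdkn1a in CCl4-fib.

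**Figure D1:**
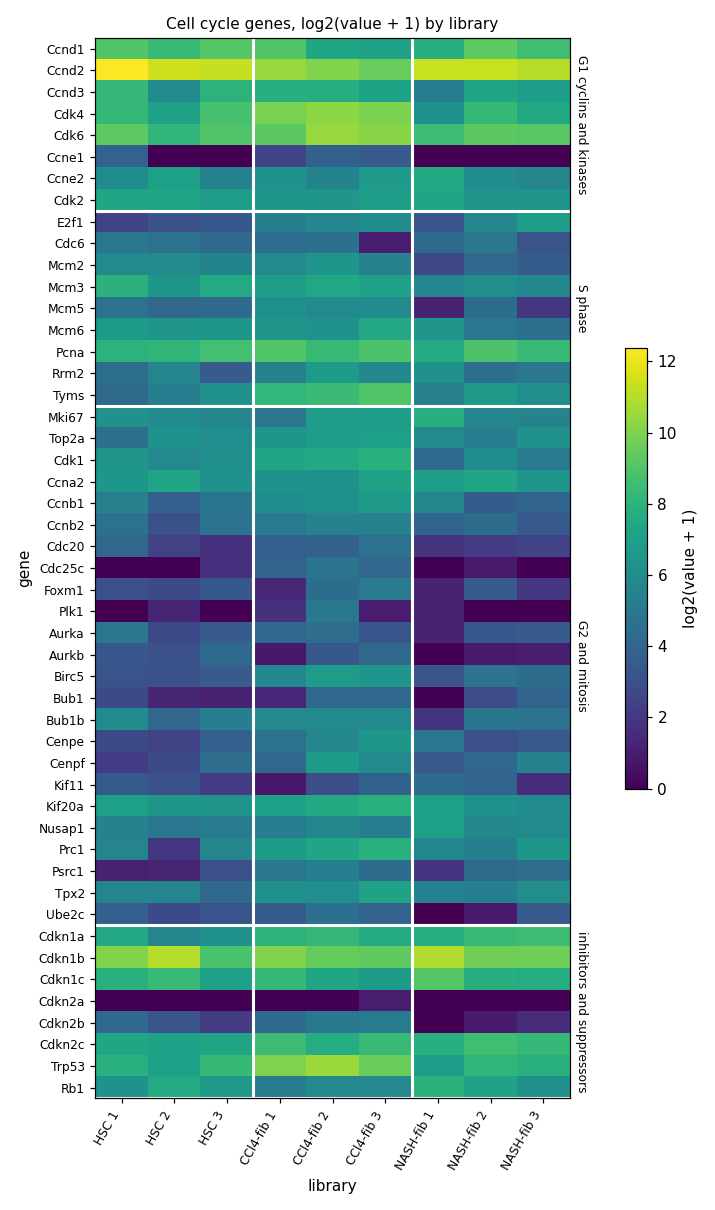
Colour map of log2(value + 1) for the 49 cell cycle genes (rows, ordered by role) in the 9 libraries (columns, 3 per group), on a scale from 0 to above 12. Ccnd2, Cdkn1b, Cdk4, Cdk6 and Trp53 are the brightest rows, most genes of mitosis are darker, and Cdkn2a is dark throughout.

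Among the 8 cyclins and kinases of G1, Cdk4 was the one that rose in CCl4-fib. Cdk4 (NM_009870, chr10:127063603-127067282, mm10) encodes the kinase that D-type cyclins activate. Its values were 305, 137 and 433 in HSCs, 939, 1241 and 986 in the CCl4-fib libraries and 73.4, 315 and 183 in those of NASH-fib. All 3 CCl4-fib libraries lay above all 6 others, while the HSC and NASH-fib libraries overlapped. The log2 fold change was 1.99 (SE 0.56, limma adjusted p = 0.0242) for CCl4-fib against HSCs and -2.69 (SE 0.56, adjusted p = 0.019) for NASH-fib against CCl4-fib. Exons of Tspan31 on the opposite strand cover 19.7% of the exon bases of Cdk4, and the counting did not use strand, so reads there cannot be told apart.

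Ccnd2, which encodes cyclin D2, moved the other way and was the most abundant cell cycle gene per base of exon in HSCs, at a mean of 138 RPKM (reads scaled to library size and exon length). Its values were 5350, 2803 and 2489 in HSCs, 1399, 1055 and 736 in the CCl4-fib libraries and 2595, 2641 and 2095 in those of NASH-fib. Each CCl4-fib library was below every other library, and the log2 fold change was -1.70 (SE 0.38, limma adjusted p = 0.00796) against HSCs. NASH-fib overlapped HSCs, with a log2 fold change of -0.46 (SE 0.38, adjusted p = 0.582), and against CCl4-fib the value was 1.24 (SE 0.38, adjusted p = 0.0644), short of the threshold by limma and past it with TMM scaling and with DESeq2. Ccnd1, the gene of cyclin D1, read 525, 326 and 552 in HSCs, 521, 156 and 135 in the CCl4-fib libraries and 227, 638 and 386 in those of NASH-fib. Its groups overlapped and it was not called in any comparison. Cdk6, the partner kinase of Cdk4, had log2 fold changes of 1.14 (SE 0.43, adjusted p = 0.0742) in CCl4-fib and 0.17 (SE 0.43, adjusted p = 0.91) in NASH-fib against HSCs by limma. Ccne1, the gene of cyclin E1, which opens S phase with Cdk2, had 0 reads in all 3 NASH-fib libraries, and it read 4.76, 13.6 and 10.5 in CCl4-fib, a mean at least 2.98-fold higher than in NASH-fib, taking 3 reads per library as the floor there. It read 14.0 in HSC replicate 1 and 0 in the other HSC libraries. It was not called by limma, and in NASH-fib against CCl4-fib it was called lower by DESeq2 and in the fit of only the 2 groups compared. Ccnd3, Ccne2 and Cdk2 ran from log2 fold changes of -1.11 to 0.19 over the 3 comparisons and were not called.

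Of the 9 genes of S phase, Tyms and E2f1 rose in CCl4-fib. Mcm2, Mcm3 and Mcm5 were called lower in NASH-fib, each against HSCs, CCl4-fib or both. They encode subunits of the MCM helicase, the ring that unwinds DNA ahead of the replication fork. Tyms (NM_021288, chr5:30058200-30073625) encodes thymidylate synthase, which makes dTMP for DNA. It read 18.7, 37.9 and 75.3 in HSCs, 294, 350 and 527 in the CCl4-fib libraries and 40.8, 104 and 69.8 in those of NASH-fib. CCl4-fib stood apart from both other groups, which overlapped. The log2 fold change was 3.29 (SE 0.56, limma adjusted p = 0.0017) against HSCs and -2.49 (SE 0.56, adjusted p = 0.0233) for NASH-fib against CCl4-fib. The annotation also holds a pseudogene of Tyms, and whether its reads were kept apart is not given in the sources used here.

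E2f1, an E2F factor of the activating kind, read 4.68, 7.28 and 9.56 in HSCs. It read 38.1, 52.7 and 64.9 in the CCl4-fib libraries and 8.16, 52.5 and 118 in those of NASH-fib. CCl4-fib was above all HSC libraries, and NASH-fib spread from the range of HSCs to above that of CCl4-fib. The log2 fold change against HSCs was 2.71 (SE 0.83, limma adjusted p = 0.0335) in CCl4-fib and 2.29 (SE 0.83, adjusted p = 0.112) in NASH-fib. In NASH-fib it was short of the threshold by limma and past it with DESeq2 (3.08, adjusted p = 0.00245), with edgeR (3.08, adjusted p = 0.0336) and by limma without NASH-fib replicate 1 (3.33, adjusted p = 0.0037).

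Mcm2 (NM_008564, chr6:88883474-88898780) read 59.6, 58.2 and 47.8 in HSCs, 55.6, 91.0 and 43.9 in the CCl4-fib libraries and 5.44, 16.0 and 11.8 in those of NASH-fib. Every NASH-fib library was below the 6 others, among which HSCs and CCl4-fib overlapped. The log2 fold change of NASH-fib was -2.32 (SE 0.52, limma adjusted p = 0.0136) against HSCs and -2.46 (SE 0.52, adjusted p = 0.0201) against CCl4-fib. Mcm3 read 244, 93.2 and 188 in HSCs, 119, 163 and 134 in the CCl4-fib libraries and 48.9, 72.1 and 50.1 in those of NASH-fib. It too was lowest in every NASH-fib library, and it was called against HSCs (-1.52, SE 0.44, adjusted p = 0.0456) but not against CCl4-fib (-1.28, SE 0.44, adjusted p = 0.087). Mcm5 (NM_008566, chr8:75109509-75128439) read 23.4, 16.0 and 17.9 in HSCs, 73.0, 57.8 and 61.1 in the CCl4-fib libraries and 1.36, 19.6 and 2.95 in those of NASH-fib. CCl4-fib stood above both groups, and NASH-fib replicate 2 lay within the range of HSCs. Its log2 fold change was -3.49 (SE 0.75, adjusted p = 0.0208) for NASH-fib against CCl4-fib. It was not called against HSCs, with 1.70 (SE 0.75, adjusted p = 0.116) in CCl4-fib and -1.78 (SE 0.75, adjusted p = 0.18) in NASH-fib. Mcm6, the fourth helicase subunit listed, read 105, 87.4 and 92.1 in HSCs, 85.7, 77.4 and 177 in the CCl4-fib libraries and 88.4, 28.5 and 22.6 in those of NASH-fib and was not called. Mcm4 and Mcm7 are in the list of further DNA replication genes below, of which limma called 0 in NASH-fib against HSCs.

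Pcna, the sliding clamp of DNA polymerases, was the S phase gene read most per base of exon in each group. Its values were 254, 278 and 408 in HSCs, 518, 333 and 472 in the CCl4-fib libraries and 186, 483 and 338 in those of NASH-fib, with all groups overlapping. Neither Pcna, nor Rrm2, a subunit of ribonucleotide reductase, nor Cdc6, which loads the helicase on origins, was called in any comparison.

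Promoters were searched for the elements known from cell cycle genes, and the sequences of 4 called genes are shown because they differ in these elements. RefSeq promoters (GRCm38.p6, 250 bases before the start of the gene to 50 after it) were at hand for 38 of the 49 genes and for 17292 genes in all. The letters TTTGAA of the cell cycle homology region (CHR), through which MuvB complexes bind, were found on either strand in 14 of the 38, and in 15.7% of all promoters. The CCAAT box, letters CCAAT, was found in 26 of the 38 and in 38.6% of all. At least 1 of 4 forms of the E2F site (TTTGGCGC, TTTCCCGC, TTTCGCGC or TTTGCCGC) was found in 7 of the 38 and in 2.89% of all, and forms on opposite strands can overlap. These are matches of letters and not measured binding. Below are the 180 bases before the start of Cdk1 (chr10:69352913-69353092, minus strand), Mcm2 (chr6:88898781-88898960, minus strand), Mcm5 (chr8:75109329-75109508, plus strand) and Birc5 (chr11:117849057-117849236, plus strand), written 5′ to 3′ with matches of these elements on either strand in capitals.
Cdk1: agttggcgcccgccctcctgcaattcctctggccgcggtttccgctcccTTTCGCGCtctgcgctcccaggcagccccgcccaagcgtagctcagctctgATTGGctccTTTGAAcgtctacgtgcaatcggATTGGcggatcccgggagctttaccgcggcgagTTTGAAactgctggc
Mcm2: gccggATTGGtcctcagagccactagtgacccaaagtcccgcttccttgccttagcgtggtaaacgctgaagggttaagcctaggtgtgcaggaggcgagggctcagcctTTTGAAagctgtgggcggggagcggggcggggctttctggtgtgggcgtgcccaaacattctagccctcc
Mcm5: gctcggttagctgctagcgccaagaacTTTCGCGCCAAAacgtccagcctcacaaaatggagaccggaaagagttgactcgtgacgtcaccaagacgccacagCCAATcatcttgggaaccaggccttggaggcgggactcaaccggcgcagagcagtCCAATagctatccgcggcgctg
Birc5: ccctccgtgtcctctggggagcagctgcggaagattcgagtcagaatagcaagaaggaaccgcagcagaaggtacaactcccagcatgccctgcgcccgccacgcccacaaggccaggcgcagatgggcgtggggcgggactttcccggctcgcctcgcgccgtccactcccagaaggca
Cdk1 holds a pair of TTTGAA elements, at -71 and -15 from the first transcribed base, together with CCAAT boxes at -80 and -48 and an E2F form at -131. Mcm2 holds 1 TTTGAA element at -70 and a CCAAT box at -175. Mcm5 holds no TTTGAA in this window, CCAAT boxes at -77 and -22 and overlapping E2F forms at -153 and -149, and Birc5 holds none of these letters there.

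The 24 genes of G2 and mitosis were read at low levels, and 5 of the 22 tested (22.7%) rose in CCl4-fib against HSCs, near the 16.2% of all tested genes. DESeq2 called 7 of them higher and edgeR 5. None was lower there by limma, edgeR, DESeq2 or an unadjusted p below 0.05. Against HSCs, 20 of the 22 had a positive log2 fold change in CCl4-fib, with a median of 1.25, and 12 of 22 in NASH-fib, with a median of 0.18. In NASH-fib against CCl4-fib, 3 (13.6%) were called lower, where 5.66% of all tested genes were. In that comparison 18 of 22 were negative, with a median of -1.35 against -0.11 over all genes. Birc5 (NM_001012273, chr11:117849237-117855743), which encodes survivin of the chromosomal passenger complex, read 8.18, 7.28 and 10.8 in HSCs, 51.6, 109 and 84.0 in the CCl4-fib libraries and 8.16, 24.9 and 19.7 in those of NASH-fib. All CCl4-fib libraries were above the other 6. Its log2 fold change was 3.03 (SE 0.56, limma adjusted p = 0.00284) against HSCs and -2.21 (SE 0.56, adjusted p = 0.0343) for NASH-fib against CCl4-fib. Cdk1 (NM_007659, chr10:69336635-69352912), the kinase that starts mitosis, read 84.2, 56.8 and 71.7 in HSCs, 157, 179 and 243 in the CCl4-fib libraries and 17.7, 63.2 and 33.4 in those of NASH-fib. CCl4-fib was again above all others, and NASH-fib overlapped the low end of HSCs. Cdk1 was called in NASH-fib against CCl4-fib (-2.47, SE 0.49, adjusted p = 0.0164), and its log2 fold change in CCl4-fib against HSCs was 1.43 (SE 0.49, adjusted p = 0.0532).

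Cdc25c, the phosphatase that activates Cdk1, was read almost only in CCl4-fib. It read 0, 0 and 2.39 in HSCs, 14.3, 26.4 and 16.2 in the CCl4-fib libraries and 0, 0.89 and 0 in those of NASH-fib. HSCs and NASH-fib were at the floor of 3 reads per library, so CCl4-fib was at least 4.96-fold higher than HSCs and at least 5.86-fold higher than NASH-fib, with limma adjusted p = 0.00628 and 0.0164. A gene on the opposite strand, Gm3550, covers 12.7% of its exon bases.

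Cenpe, a kinetochore motor, read 5.84, 4.37 and 13.2 in HSCs, 23.8, 52.7 and 94.5 in the CCl4-fib libraries and 28.6, 7.13 and 9.83 in those of NASH-fib. Prc1, which bundles microtubules of the central spindle, read 49.1, 2.91 and 50.2, then 108, 152 and 230, then 53, 40.1 and 92.4 in the same groups. Psrc1, a spindle protein, read 1.17, 1.46 and 7.17, then 29.4, 39.1 and 20.0, then 2.72, 18.7 and 20.6. For each of the 3 genes CCl4-fib lay above every HSC library, and for Cenpe and Psrc1 it overlapped NASH-fib. Their log2 fold changes in CCl4-fib against HSCs were 2.65 (SE 0.73, limma adjusted p = 0.0213), 2.86 (SE 0.89, adjusted p = 0.0358) and 3.07 (SE 0.83, adjusted p = 0.0205). The value of 2.91 for Prc1 in HSC replicate 2 stood far below the other HSC libraries, and exons of Rccd1 on the opposite strand cover 11.1% of the exon bases of Prc1.

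**Figure D2:**
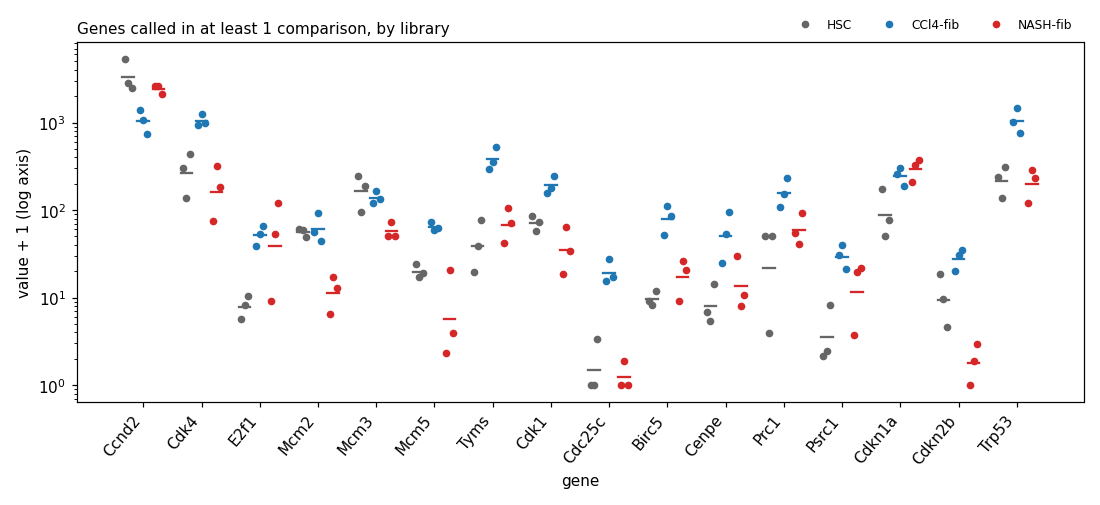
Value + 1 on a log axis for each of the 16 cell cycle genes called in at least 1 comparison, with 1 point per library, 3 libraries per group, and a short line at the mean of the log values. CCl4-fib points lie above all HSC points for 13 of the genes, below them for Ccnd2 and among them for Mcm2 and Mcm3, and NASH-fib is below both groups for Mcm2, Mcm3 and Cdkn2b.

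Mki67, the gene of the Ki-67 antigen by which dividing cells are often stained, was not called in any comparison. It read 74.8, 62.6 and 52.6 in HSCs, 27.8, 110 and 117 in the CCl4-fib libraries and 213, 49.9 and 46.2 in those of NASH-fib. The highest library of all was NASH-fib replicate 1 and the lowest CCl4-fib replicate 1, so the groups overlapped, and the log2 fold changes ran from 0.15 to 0.33 (SE 0.70). Top2a, the topoisomerase that untangles chromosomes, read 22.2, 81.5 and 67.0 in HSCs, 90.5, 110 and 126 in the CCl4-fib libraries and 55.7, 38.3 and 75.7 in those of NASH-fib. CCl4-fib was above every other library for Top2a, but the log2 fold change of 1.10 (SE 0.54, limma adjusted p = 0.151) against HSCs was not called. The B-type cyclins that partner Cdk1 were not called either, with log2 fold changes in CCl4-fib against HSCs of 1.61 (SE 0.64, adjusted p = 0.0829) for Ccnb1 and 1.23 (SE 0.59, adjusted p = 0.143) for Ccnb2. Ccna2, the gene of cyclin A2, and Kif20a, a motor of cytokinesis, had the highest levels per base of exon among the genes of this role in HSCs, at 8.44 and 6.45 RPKM, and opposite-strand genes cover 12.5% and 29.3% of their exon bases.

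The remaining genes of mitosis gave no call by limma. Cenpf, a kinetochore protein, came closest in CCl4-fib against HSCs (2.48, SE 0.85, limma adjusted p = 0.0515), and it was called higher there by DESeq2, with log2 CPM values, with a pseudocount of 10 and with the replicate block. Nusap1, which binds spindle microtubules, was the tested gene of this role with the highest log2 fold change in NASH-fib against CCl4-fib, 0.83 (SE 0.48, adjusted p = 0.275). Aurka and Tpx2 (a spindle kinase and its activator), Bub1 and Bub1b of the spindle checkpoint, Cdc20 and Ube2c of the pathway that ends mitosis, the spindle motor Kif11 and the transcription factor Foxm1 had between 0 and 138 in every library and were not called. Plk1, the polo-like kinase, and Aurkb, the kinase of the passenger complex, were too low to be tested. Plk1 read 31.5 in CCl4-fib replicate 2 and at most 2.38 in the 8 other libraries, and Aurkb read 7.28 to 17.9 in HSCs, 0.79, 9.36 and 18.1 in CCl4-fib and at most 0.98 in NASH-fib.

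**Figure D3:**
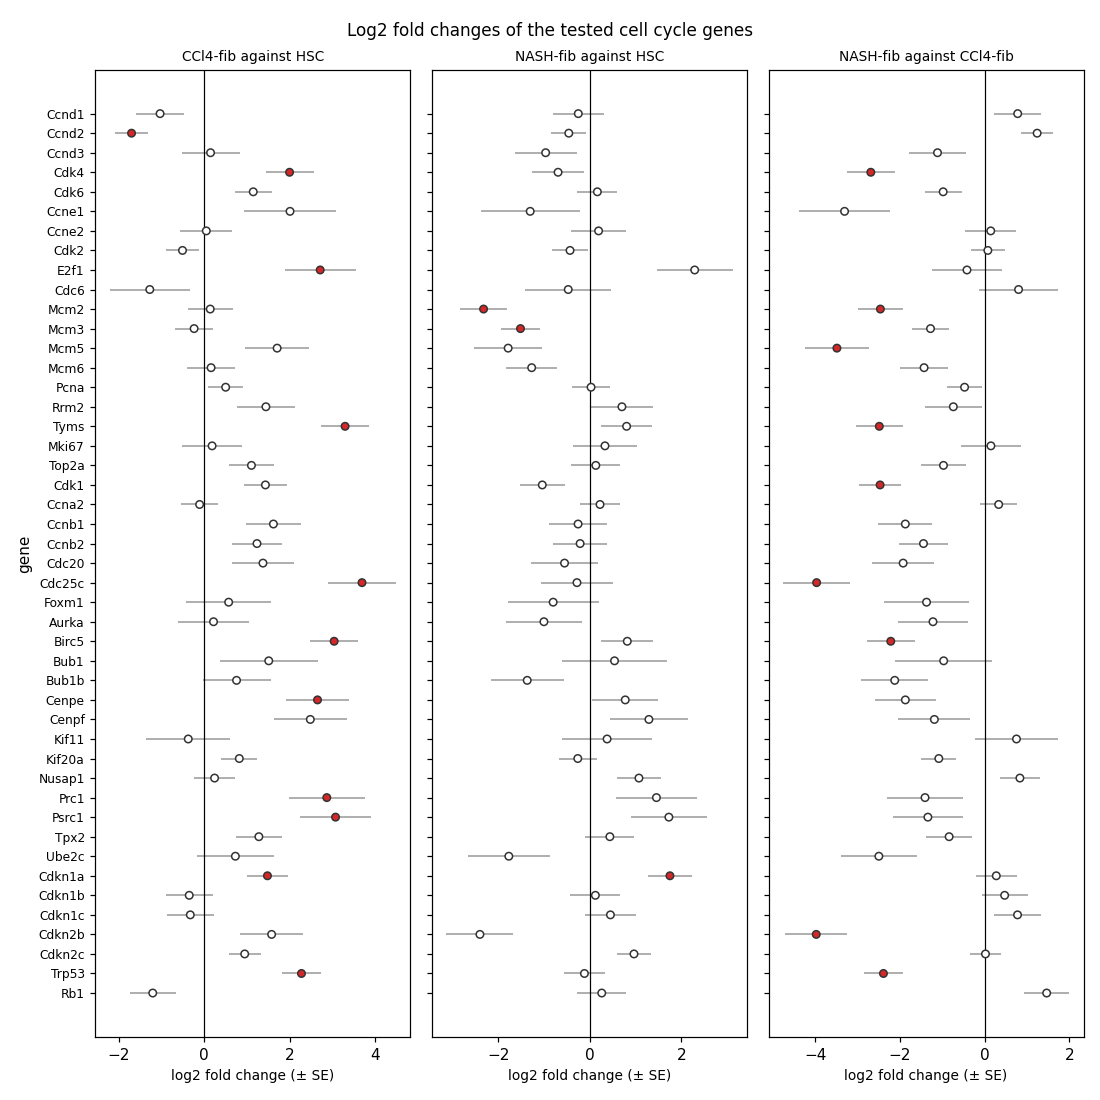
Log2 fold change (x axis, point) with its standard error (bar) for the 46 tested cell cycle genes in CCl4-fib against HSCs, NASH-fib against HSCs and NASH-fib against CCl4-fib, with called genes filled in red. Most points lie right of 0 in the first panel, on both sides of 0 in the second and left of 0 in the third.

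Of the 7 tested genes that restrain the cycle, Trp53 and Cdkn1a were called higher in CCl4-fib against HSCs, Cdkn1a in NASH-fib against HSCs, and Cdkn2b and Trp53 lower in NASH-fib against CCl4-fib. Trp53 (NM_011640, chr11:69580359-69591873), the gene of p53, read 235, 137 and 311 in HSCs, 1024, 1470 and 755 in the CCl4-fib libraries and 118, 285 and 232 in those of NASH-fib. Each CCl4-fib library lay above the 6 others, and NASH-fib overlapped HSCs. Trp53 rose in CCl4-fib by 2.27 on the log2 scale (SE 0.46, limma adjusted p = 0.00428) against HSCs, and its value was -2.39 (SE 0.46, adjusted p = 0.0146) for NASH-fib against CCl4-fib and -0.12 (SE 0.46, adjusted p = 0.946) for NASH-fib against HSCs. The annotation also holds a pseudogene of Trp53.

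Cdkn1a, which encodes the kinase inhibitor p21 and is induced by p53, was the one cell cycle gene called higher in both fibroblast groups by limma, where DESeq2 called E2f1 in both too and edgeR called E2f1 alone. It read 174, 49.5 and 76.5 in HSCs, 256, 304 and 187 in the CCl4-fib libraries and 209, 330 and 374 in those of NASH-fib. All 6 fibroblast libraries were above the 3 HSC libraries, the highest of which, replicate 1, was close to CCl4-fib replicate 3. The log2 fold change was 1.48 (SE 0.49, limma adjusted p = 0.0444) in CCl4-fib and 1.75 (SE 0.49, adjusted p = 0.0389) in NASH-fib. The call in CCl4-fib was lost with edgeR (adjusted p = 0.0825), with TMM scaling (limma adjusted p = 0.0502) and with only the 2 groups compared (0.0512), among others. That in NASH-fib was kept with edgeR, DESeq2 and TMM scaling. It was lost with only the 2 groups compared (limma adjusted p = 0.101), the replicate block (0.0813) and a prior without trend (0.0539), among others.

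Cdkn2b, which encodes the Ink4 inhibitor p15, was at the floor of detection in NASH-fib. It read 17.5, 8.74 and 3.59 in HSCs, 19.1, 29.8 and 34.4 in the CCl4-fib libraries and 0, 0.89 and 1.97 in those of NASH-fib. CCl4-fib was thus at least 8.58-fold higher than NASH-fib (limma adjusted p = 0.0134), and HSCs were at least 3.08-fold higher (adjusted p = 0.0585, not called). Cdkn2a, the neighbouring gene of p16 and p19Arf, had 1 read in CCl4-fib replicate 3 and 0 reads in the 8 other libraries. Cdkn1b, the gene of p27, was the inhibitor read most per base of exon in HSCs and NASH-fib, and Cdkn1b and Cdkn1c were not called in any comparison. Cdkn2c, the gene of the Ink4 inhibitor p18, read 135 to 162 in HSCs, 201 to 361 in CCl4-fib and 215 to 387 in NASH-fib, so every fibroblast library lay above every HSC library. By limma it was not called, with log2 fold changes of 0.94 (SE 0.37, adjusted p = 0.0822) and 0.97 (SE 0.37, adjusted p = 0.137), and DESeq2 called it higher in NASH-fib against HSCs. Cdkn1c, the gene of p57, read 235, 335 and 127 in HSCs, 311, 154 and 105 in the CCl4-fib libraries and 553, 227 and 203 in those of NASH-fib, with overlapping groups. Rb1 read 79.5, 189 and 98.0 in HSCs, 35.7, 57.8 and 56.3 in the CCl4-fib libraries and 249, 141 and 72.7 in those of NASH-fib. It was lowest in CCl4-fib in every library, with log2 fold changes of -1.21 (SE 0.53, adjusted p = 0.117) against HSCs and 1.47 (SE 0.53, adjusted p = 0.103) for NASH-fib against CCl4-fib.

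Summed over each role, the genes of S phase read 760, 651 and 866 in HSCs, 1246, 1254 and 1534 in the CCl4-fib libraries and 473, 828 and 651 in those of NASH-fib. The genes of G2 and mitosis summed to 787, 616 and 654 in HSCs, 1047, 1577 and 1870 in the CCl4-fib libraries and 901, 692 and 715 in those of NASH-fib. CCl4-fib stood above the other groups in both sums, whereas HSCs and NASH-fib overlapped. The sums of G1 genes and of inhibitors overlapped between all groups. In HSCs and NASH-fib these sums are led by the genes with the most reads, Ccnd2 in G1 and Cdkn1b among inhibitors. In CCl4-fib Ccnd2, Cdk6 and Cdk4 had similar means (1063, 1060 and 1055), and Trp53 (mean 1083) stood above Cdkn1b (795). Per base of exon, the median gene of G2 and mitosis was at 1.57 RPKM in HSCs, 3.37 in CCl4-fib and 1.12 in NASH-fib, and the median G1 gene at 17.6, 18.1 and 10.5.

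**Figure D4:**
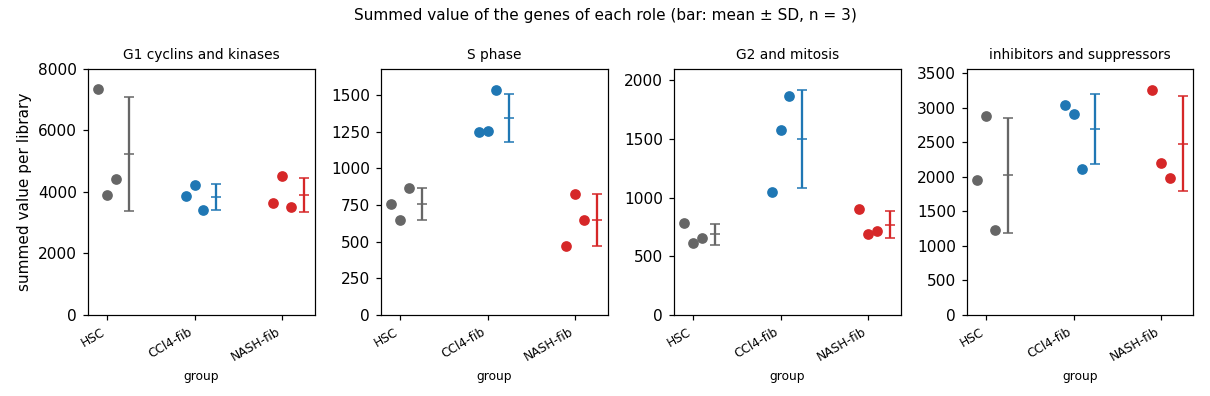
Summed value of the cell cycle genes of each role in each library (points, 3 per group), with the mean and SD of the group beside them, on axes that start at 0. CCl4-fib lies above both other groups for S phase and for G2 and mitosis, and the groups overlap for G1 genes and inhibitors.

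Further genes of the same processes were read in 5 lists, whose counts stand against shares of all tested genes of 16.2% higher and 11.7% lower in CCl4-fib against HSCs, 8.23% and 4.3% in NASH-fib against HSCs, and 4.97% and 5.66% in NASH-fib against CCl4-fib. Of 42 tested genes of DNA replication outside the 49, 8 were called higher and 2 lower in CCl4-fib against HSCs, 0 in either direction in NASH-fib against HSCs by limma, and 4 lower and 0 higher in NASH-fib against CCl4-fib. The 8 were 19.0% of the list and the 2 were 4.76%, and the 4 were 9.52%, so that the share called higher in CCl4-fib was near that of all genes. Behind the counts of 0, unadjusted p was below 0.05 for 0 higher and 4 lower genes in NASH-fib against HSCs (edgeR called 0 and 0, DESeq2 0 and 2) and for 2 higher in NASH-fib against CCl4-fib (edgeR 0, DESeq2 3). The medians of their log2 fold changes were 0.42, -0.21 and -0.91. Chaf1b, a subunit of the chromatin assembly factor that follows the fork, read 10.5, 0 and 7.17 in HSCs, 27.8, 73.1 and 59.1 in the CCl4-fib libraries and 1.36, 8.02 and 0.98 in those of NASH-fib, and it was called in both comparisons with CCl4-fib (3.47, limma adjusted p = 0.0259, and -3.86, adjusted p = 0.0356). Uhrf1, which passes on DNA methylation at the fork, and Pold1, a polymerase subunit, were called in the same comparisons, with log2 fold changes of 3.03 (adjusted p = 0.00843) and 2.70 (adjusted p = 0.0443) against HSCs and -2.97 (adjusted p = 0.0257) and -3.35 (adjusted p = 0.0391) for NASH-fib against CCl4-fib. For Pold1, HSC replicate 3 (19.1) lay above CCl4-fib replicate 3 (16.2), so those groups overlapped. Rpa2, which coats single-stranded DNA, rose in CCl4-fib against HSCs (3.16, adjusted p = 0.026). Mcm10 and Gins3, which help to fire the helicase, went against these, at -2.87 (adjusted p = 0.0478) and -2.15 (adjusted p = 0.0264) in CCl4-fib against HSCs by limma, where neither edgeR nor DESeq2 called Mcm10.

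Of 51 tested further genes of mitosis, 12 were called higher and 1 lower in CCl4-fib against HSCs, 0 higher and 2 lower in NASH-fib against HSCs, and 0 higher and 4 lower in NASH-fib against CCl4-fib by limma. The share higher in CCl4-fib against HSCs was 23.5% (edgeR called 7 genes and DESeq2 11), and that lower in NASH-fib was 3.92% against HSCs and 7.84% against CCl4-fib, both near the shares of all genes. Behind the counts of 0, unadjusted p was below 0.05 for 3 and 1 genes, edgeR called 0 and 0, and DESeq2 2 and 1. The medians of their log2 fold changes were 1.36, 0.03 and -1.31, and 1.36, 0.02 and -1.30 with genes at the floor in 1 group set to their bounds, which moved no median of the other lists. Kif2c, a kinesin that corrects chromosome attachments, read 3.51, 0 and 0 in HSCs, 37.3, 29.8 and 92.5 in the CCl4-fib libraries and 0, 9.80 and 0 in those of NASH-fib, without overlap of CCl4-fib with the others. HSCs were at the floor of 3 reads per library, so CCl4-fib was at least 13.9-fold higher (limma adjusted p = 0.00695), and the log2 fold change was -4.44 (SE 1.07, adjusted p = 0.0286) for NASH-fib against CCl4-fib. Cdca3 rose in CCl4-fib against HSCs (3.91, limma adjusted p = 0.0078). Cenpm, of the centromere, was at the floor in HSCs and in NASH-fib, and CCl4-fib was at least 5.72-fold higher than HSCs (limma adjusted p = 0.00331) and at least 6.76-fold higher than NASH-fib. Fam64a and Cdca3 were lower in NASH-fib than in CCl4-fib by limma (-4.01, adjusted p = 0.0423, and -3.40, adjusted p = 0.0357), and edgeR called neither these nor Kif2c there. DESeq2 did not call Fam64a there either, and Fam64a read 0, 11.6 and 0 in the NASH-fib libraries. Pttg1, the gene of securin, was the one called lower in CCl4-fib against HSCs (-1.21, adjusted p = 0.0274). Cks2, a subunit of cyclin-dependent kinases, and Cdca5, which holds sister chromatids together, fell in NASH-fib against HSCs by limma. The log2 fold change of Cks2 was -2.78 (adjusted p = 0.00342), and for Cdca5, which held at most 3 reads in each NASH-fib library, HSCs were at least 3.01-fold higher (adjusted p = 0.0466), a call not made by edgeR.

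Of 16 tested E2F, pocket protein and MuvB factors, 0 were called higher by limma in any comparison, where edgeR and DESeq2 each called 1 in CCl4-fib against HSCs and 1 in NASH-fib against CCl4-fib and unadjusted p was below 0.05 for 2, 0 and 1 in CCl4-fib against HSCs, NASH-fib against HSCs and NASH-fib against CCl4-fib. Lin52 was lower in CCl4-fib (-1.41, adjusted p = 0.0149) and Lin54 in NASH-fib (-1.75, adjusted p = 0.0313) against HSCs, both subunits of the MuvB core. Of 28 tested genes of kinase control and ubiquitin ligases, 4 were higher and 1 lower in CCl4-fib against HSCs, 1 was higher in NASH-fib against HSCs, and 2 were lower in NASH-fib against CCl4-fib. These were 14.3%, 3.57%, 3.57% and 7.14% of the list, at, below or near the shares of all genes. Cdk5, a kinase known for its role in neurons, read 24.6, 26.2 and 46.6 in HSCs, 337, 297 and 239 in the CCl4-fib libraries and 29.9, 58.8 and 51.1 in those of NASH-fib. It stood apart in CCl4-fib, with log2 fold changes of 3.17 (SE 0.44, limma adjusted p = 0.000531) against HSCs and -2.66 (SE 0.44, adjusted p = 0.0102) for NASH-fib against CCl4-fib. Anapc11, a subunit of the anaphase-promoting complex, was called in the same comparisons (2.30, adjusted p = 0.0365, and -2.66, adjusted p = 0.0417), the latter not by edgeR. Tob1, which slows proliferation, was called higher in both fibroblast groups by limma (1.63, adjusted p = 0.0264, and 1.61, adjusted p = 0.0483) and DESeq2 and in neither by edgeR, and Cdk14 was lower in CCl4-fib against HSCs (-1.47, adjusted p = 0.0233).

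Of 27 tested targets of p53 outside the 49 genes, 5 were higher and 1 lower in CCl4-fib, and 4 higher and 1 lower in NASH-fib, against HSCs. These were 18.5% and 3.7% in CCl4-fib, where the higher share was near that of all genes, and 14.8% and 3.7% in NASH-fib. Btg2, which restrains proliferation, read 413, 109 and 514 in HSCs, 3692, 4404 and 5626 in the CCl4-fib libraries and 1860, 8598 and 9124 in those of NASH-fib, so that both fibroblast groups lay above HSCs and overlapped each other. Its log2 fold changes against HSCs were 3.98 (SE 0.69, limma adjusted p = 0.00195) and 4.20 (SE 0.69, adjusted p = 0.00235). The receptor genes Tnfrsf10b and Eda2r were also called in both, at 4.00 (adjusted p = 0.00171) and 2.04 (adjusted p = 0.0096) in CCl4-fib and 2.75 (adjusted p = 0.0221) and 2.17 (adjusted p = 0.012) in NASH-fib, and Xpc of DNA repair was called lower in both (-2.02, adjusted p = 0.0164, and -2.53, adjusted p = 0.00881). Dram1, an inducer of autophagy, was called higher in CCl4-fib (3.82, adjusted p = 0.000468). Dram1 and Plk3, a stress kinase, were called lower in NASH-fib than in CCl4-fib (-3.23, adjusted p = 0.00944, and -2.88, adjusted p = 0.0196).

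The calls differed in how far they rested on single libraries. With each of the 9 libraries left out in turn, 5 of the 23 calls were kept in every fit, those of Ccnd2, Tyms, Cdc25c, Birc5 and Trp53 in CCl4-fib against HSCs. The number called higher in CCl4-fib against HSCs ran from 4 to 13, with 6, 4 and 5 when CCl4-fib replicates 1, 2 and 3 were left out and 5 when HSC replicate 2 was. The number called lower in NASH-fib against CCl4-fib ran from 0 to 10, with 0 when CCl4-fib replicate 2 was left out, 4 when replicate 1 or replicate 3 of that group was, and 1 (Cdkn2b) when NASH-fib replicate 3 was. The call of Mcm3 was kept in 1 of 9 such fits and those of Cdkn1a in 2 of 9 in each comparison, while that of Mcm2 in NASH-fib against HSCs was kept in 8 of 9. Library labels begin with what reads as a date. Within each date that held both groups, from 1 or 2 libraries a group, all called genes kept their direction. These were 11 for CCl4-fib against HSCs, 9 for NASH-fib against CCl4-fib and 3 for NASH-fib against HSCs. It could not be otherwise, because the compared groups did not overlap for any of these calls, so nothing on the dates follows from it. With that date as a term in the fit, 6 were called higher in CCl4-fib against HSCs, 5 lower in NASH-fib against CCl4-fib and 0 in either direction in NASH-fib against HSCs.

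**Figure D5:**
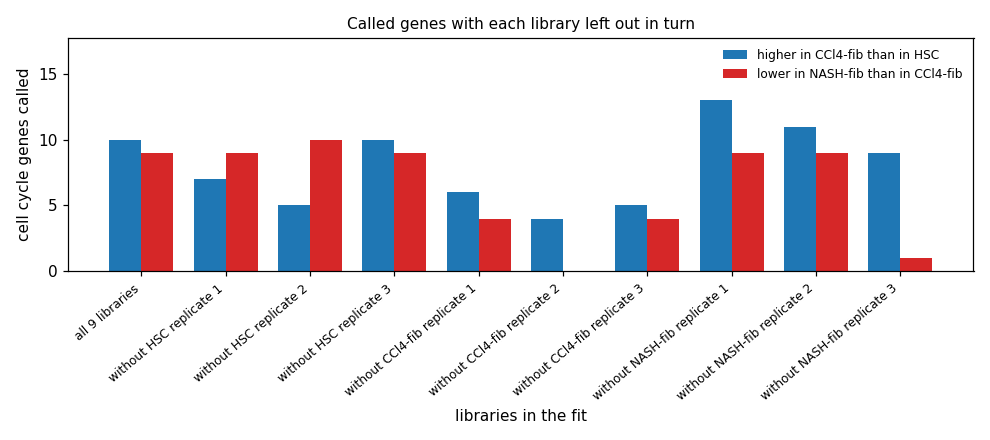
Number of cell cycle genes (y axis, from 0) called higher in CCl4-fib than in HSCs (blue) and lower in NASH-fib than in CCl4-fib (red), with all 9 libraries and with each left out in turn (x axis). The red bars fall from 9 to 0 without CCl4-fib replicate 2 and to 1 without NASH-fib replicate 3, and the blue bars range from 4 to 13.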

How the data were processed

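RNA of 9 pools of mouse liver cells was amplified with the SMARTer Ultra Low Input kit and sequenced in single reads. Per the labels and the file headers, the authors used CASAVA and STAR with mm10 and counted reads with HOMER on exons of RefSeq genes, on both strands, keeping at most 3 reads per position. The deposited values are a signal, whole reads times 1 factor per library, described as made with DESeq2 over 10 libraries. Of these 9 are columns here, and 0 columns of libraries were left unused. The values sum to 4.47e+06 in every library, so the factors set the libraries to equal totals and do not correct for composition. Divided by what 1 read was worth in its library, 100% of values were whole (within 0.1). The cap on reads per position can lower strongly expressed genes. The highest of the 49 genes, Cdk4, had 1.09 reads per base of exon.

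Genes were kept by filterByExpr of edgeR 4.0.16 (minimum count 10) on recovered reads. Group means of log2(value + 1) were fitted over all 9 libraries with limma 3.58.1 in R 4.3.3 (moderated test, two-sided, prior with trend), and p-values were adjusted by Benjamini-Hochberg over 13651 genes. The fits were checked on simulated data. edgeR and DESeq2 1.42.0 on recovered reads, other scalings, filters and pseudocounts, a replicate block, the label date as a term and each library left out were alternatives. Depth limits genes near 3 reads, and such limits cover counting error only. A fold against a group with at most 3 reads in every library was computed against 3 reads in each library.

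Libraries were pools labelled as replicates of a group, so p-values measure the spread between pools. The genes, their roles and the other lists were chosen with earlier results of these data known. All 49 genes are reported, with values in every library for those called in any comparison and for Mki67, Top2a, Pcna, Ccnd1, Cdkn1c, Cdkn2a and Rb1, and of each further list up to 3 called genes with the largest change per comparison and direction. Overlaps between genes came from GENCODE vM21 (mm10), and promoters from RefSeq GRCm38.p6. Besides the overlaps given above, opposite-strand genes cover 30.7% of the exon bases of Cdkn1c, 23.4% of Ccnd1 and 22.8% of Ube2c. They cover 17.4% of Ccne2 and 14.9% of Rb1. The annotation also holds pseudogenes of Pcna, Ccnb1, Ccnb2 and Ccnd3.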

Additional observations from a re-analysis of the deposited data

Results flagged for a closer look

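Genes whose change against HSCs differed between NASH-fib and CCl4-fib are listed here, the difference being tested by limma as NASH-fib against CCl4-fib with Benjamini-Hochberg adjustment over 13651 genes. The HSC libraries cancel from this difference, and no gene was examined for single outlying libraries, since groups of 3 are too small. Among the 49 cell cycle genes the difference on the log2 scale was -2.69 for Cdk4, -2.46 for Mcm2, -3.49 for Mcm5, -2.49 for Tyms, -2.47 for Cdk1, -3.97 for Cdc25c, -2.21 for Birc5, -3.97 for Cdkn2b and -2.39 for Trp53, all negative, with every NASH-fib library below every CCl4-fib library for each of the 9. NASH-fib held at most 3 reads in every library for Cdc25c and Cdkn2b, so their fitted values depend on the pseudocount and are no bounds, and CCl4-fib was at least 5.86-fold and 8.58-fold higher. None of these 9 calls was kept without CCl4-fib replicate 2, and only that of Cdkn2b was kept without NASH-fib replicate 3.

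Of the further genes of the same processes, the difference was -3.86 for Chaf1b, -3.35 for Pold1 and -2.97 for Uhrf1 of DNA replication. It was -4.44 for Kif2c, -4.01 for Fam64a, -3.40 for Cdca3 and -3.31 for Cenpm of mitosis, the last at the same floor in NASH-fib, with CCl4-fib at least 6.76-fold higher. It was -2.66 for Anapc11 and -2.66 for Cdk5 of kinase control and ubiquitin ligases, and -3.23 for Dram1 and -2.88 for Plk3 among targets of p53. Fam64a was called by neither edgeR nor DESeq2, and Kif2c, Cdca3 and Anapc11 were not called by edgeR.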

How the results depend on the processing

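With each library left out in turn, the number of cell cycle genes called ran from 4 to 13 (10 with all libraries) for higher in CCl4-fib against HSCs, from 1 to 2 (1) for lower, from 0 to 3 (1) for higher in NASH-fib against HSCs, from 0 to 2 (2) for lower, from 0 to 10 (9) for lower in NASH-fib against CCl4-fib and from 0 to 0 (0) for higher. With the label date as a term these were 6, 0, 0, 0, 5 and 0, and with only genes of a mean value over 100, which tests fewer genes, 4 were higher in CCl4-fib against HSCs, 4 lower in NASH-fib against CCl4-fib and 0 lower in NASH-fib against HSCs. Of NASH-fib against HSCs, the higher count was 3 with DESeq2, 2 with edgeR, 0 with only the 2 groups compared and 0 with a prior without trend, and the lower count was 1 without a filter and 1 with only the 2 groups compared. In NASH-fib against CCl4-fib the higher count was 2 with DESeq2 and 1 with TMM scaling. For these changes other than by fewer genes or libraries the cause was not tested. TMM scaling moved the median log2 fold change of all genes by 0.18 in NASH-fib against CCl4-fib and by -0.12 in CCl4-fib against HSCs. Over 25 alternatives no value changed sign in a comparison where the gene was called by the main fit or by the alternative. In 1617 values of single genes 106 calls were lost and 26 gained, and 34 values called in neither fit changed sign. Of the further lists, edgeR called 5 in place of 8 genes of DNA replication, 7 in place of 12 of mitosis and 2 in place of 4 of kinase control higher in CCl4-fib against HSCs. It called 0 in place of 1 (Tob1) of kinase control higher in NASH-fib against HSCs. Lower in NASH-fib against CCl4-fib, it called 1 in place of 4 of mitosis and 1 in place of 2 of kinase control. In that comparison and direction DESeq2 called 8 in place of 4 of DNA replication.

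Replicate numbers did not pair the libraries, since the correlation of same-numbered libraries after removing group means ran from -0.473 to 0.514. With the replicate block, 0 genes were higher and 1 lower in NASH-fib against HSCs, 10 higher in CCl4-fib against HSCs and 8 lower in NASH-fib against CCl4-fib. HSC replicate 2 and NASH-fib replicate 1, which share a label date, correlated at 0.645. The other pairs of libraries that share a date across groups ran from -0.171 to 0.04. With HSC replicate 2 and NASH-fib replicate 1 left out, an alternative chosen after seeing the data, 11 genes were higher in CCl4-fib against HSCs and 12 lower in NASH-fib against CCl4-fib. In NASH-fib against HSCs 2 were then higher and 3 lower. Depth limits statements on Ccne1, Cdc25c, Plk1, Aurkb, Cdkn2a and Cdkn2b, which had at most 3 reads in every library of at least 1 group.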
